A study of Mus musculus with 24 samples.

Results

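Defb1, Hp, Lcn2, Slpi, Rnase4, Ang and Ltf encode secreted proteins of innate defence in the urinary tract, and they are 7 of the 54393 genes counted in whole kidneys of mouse embryos. They were matched by gene name in the deposited tables. The genes were selected on measured values in part, since Defb1 and Hp were picked because they were lower in the libraries labelled 3XKO than in their controls, and the other genes because collecting duct cells are known to secrete several of these proteins. The 3XKO values are therefore given as a description, without a test.

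The urinary tract is protected by proteins that epithelial cells and infiltrating leukocytes release into urine and mucus. Defensins and antimicrobial ribonucleases damage microbes directly, siderophore-binding and metal-binding proteins withhold iron, and protease inhibitors limit damage to the host's own tissue. In the adult kidney, intercalated cells of the collecting duct are known for making several of them, Lcn2 among these, and neutrophils carry others in their granules.

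Libraries were made from embryonic day 18.5 kidneys of 3 mouse lines, each with knockouts and an equal number of control littermates. The groups are Dmrt2 KO and Dmrt2 control (3 and 3 libraries), Hmx3; Hmx2 KO and Hmx3; Hmx2 control (6 and 6), and 3XKO, which the series' design text gives as a knockout of Dmrt2, Hmx3 and Hmx2 together, with 3XKO control (3 and 3). The study asked how these transcription factors shape the subtypes of intercalated cells. The labels describe neither the alleles nor the genotype of the control littermates, nor do they state whether 1 embryo gave 1 library. The p-values therefore reflect library-to-library spread, part of which may be technical. In RNA of a whole kidney, fewer cells of a type and less RNA per cell cannot be told apart.

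The targeted genes were examined first. Dmrt2 averaged 1.99 ± 0.359 CPM (reads scaled to a common library total, with TMM factors) in Dmrt2 KO and 13.8 ± 1.38 CPM in Dmrt2 control (SD, n = 3 each). Hmx2 had 8 reads in all in the Hmx3; Hmx2 KO libraries, against 807 in Hmx3; Hmx2 control, and 2 reads in 3XKO, against 872 in 3XKO control. Dmrt2 went against the 3XKO label, with 18.3 ± 0.694 CPM in the libraries labelled 3XKO and 11.6 ± 0.811 CPM in 3XKO control (SD, n = 3 each), so every direction given for 3XKO is that of the libraries so labelled. Library totals ran from 52286824 to 127339273 reads. Expression of Y-linked genes was seen in 1 of 3 Dmrt2 KO and 3 of 3 Dmrt2 control libraries, in 2 of 6 Hmx3; Hmx2 KO and 4 of 6 Hmx3; Hmx2 control libraries, and in 2 of 3 libraries in each of 3XKO and 3XKO control. The kidney marker list was measured throughout, with 1035 to 1309 summed CPM in knockouts of any line and 1120 to 1434 summed CPM in controls.

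On the mm39 build, Defb1 (chr8:22266615-22285201, plus strand) and Hp (chr8:110301760-110305804, minus strand) were on chromosome 8, Lcn2 (chr2:32274645-32278264, minus strand) and Slpi (chr2:164195990-164231015, minus strand) on chromosome 2, and Ltf (chr9:110848339-110871835, plus strand) on chromosome 9. Rnase4 (chr14:51328534-51343608, plus strand) and Ang (chr14:51328607-51339466, plus strand) overlapped on chromosome 14, where both genes are known to be transcribed from common promoters. Their exons shared 219 bases, 13.4% of the counted exon length of Rnase4 and 18.2% of that of Ang. Reads that reached those bases, even in part, were assigned to neither gene. The part of each gene affected is therefore larger than these shares, and the levels of both are uncertain.

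The promoter table was on build GRCm38.p6, which differs from the build of the counts. It held windows of 250 bases before to 50 after a start for 5 of the 7 genes, Lcn2, Slpi, Rnase4, Ang and Ltf. The window of Ang was identical to a window of Rnase4. The 250 bases before the start are shown for Rnase4 and Ang because both genes are listed with them, and for Lcn2 and Ltf, whose iron-withholding proteins are both stored in neutrophil granules. Capitals mark matches to the C/EBP motif TTNNGNAA on either strand, C/EBP factors being known inducers of acute phase genes. The Rnase4 and Ang sequence is chr14:51090827-51091076 on the plus strand, that of Lcn2 chr2:32387740-32387989 on the minus strand, and that of Ltf chr9:111019042-111019291 on the plus strand, each written 5′ to 3′.
Rnase4 and Ang: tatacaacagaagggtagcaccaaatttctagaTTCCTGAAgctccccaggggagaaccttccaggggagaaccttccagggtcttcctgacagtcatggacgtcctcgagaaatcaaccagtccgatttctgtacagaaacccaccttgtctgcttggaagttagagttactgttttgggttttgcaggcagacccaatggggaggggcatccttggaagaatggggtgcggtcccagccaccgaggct
Lcn2: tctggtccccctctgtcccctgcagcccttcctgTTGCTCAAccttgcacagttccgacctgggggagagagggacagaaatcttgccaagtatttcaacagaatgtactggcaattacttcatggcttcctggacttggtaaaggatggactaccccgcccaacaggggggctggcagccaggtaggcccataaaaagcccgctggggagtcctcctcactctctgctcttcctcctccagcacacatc
Ltf: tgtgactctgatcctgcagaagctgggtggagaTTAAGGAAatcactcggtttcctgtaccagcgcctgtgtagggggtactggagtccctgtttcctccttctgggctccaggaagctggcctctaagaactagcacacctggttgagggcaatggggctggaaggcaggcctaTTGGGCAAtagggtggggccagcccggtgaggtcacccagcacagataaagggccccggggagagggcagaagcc

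The Rnase4 and Ang window held 1 C/EBP match, beginning 217 bases before the start, that of Lcn2 held 1 and that of Ltf held 2. A second Rnase4 window held 2 and the Slpi window 3. This motif was present in 40.7% of the 32534 windows searched, which left out repeated sequences and 1 chromosome. Motifs of NF-kB (in 4.78% of windows), STAT (TTCNNNGAA, 8.33%) and DM domain factors (ACANTGT, 7.37%) were searched on both strands and had no match in the windows of these genes. The HMX motif CAAGTG, in 13.5% of windows, had 1 match, in Slpi, beginning 37 bases before the start. No matches in the windows of these genes overlapped each other, and none says that a factor binds there.

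Per kilobase of exon, Defb1 had the highest level of the 7 genes. Its mean was 30.6 CPM per kb over the 24 libraries, above 88.9% of the 15039 genes with a mean of at least 1 CPM. Rnase4 followed at 13.3 CPM per kb, and Lcn2 at 2.92 CPM per kb. Hp averaged 1.80 CPM per kb and Ang 1.59 CPM per kb. Ltf at 0.220 CPM per kb and Slpi at 0.148 CPM per kb were near the limit of measurement, Slpi with only 4 to 27 reads in a library, where 3 reads are taken as the floor.

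**Figure D1:**
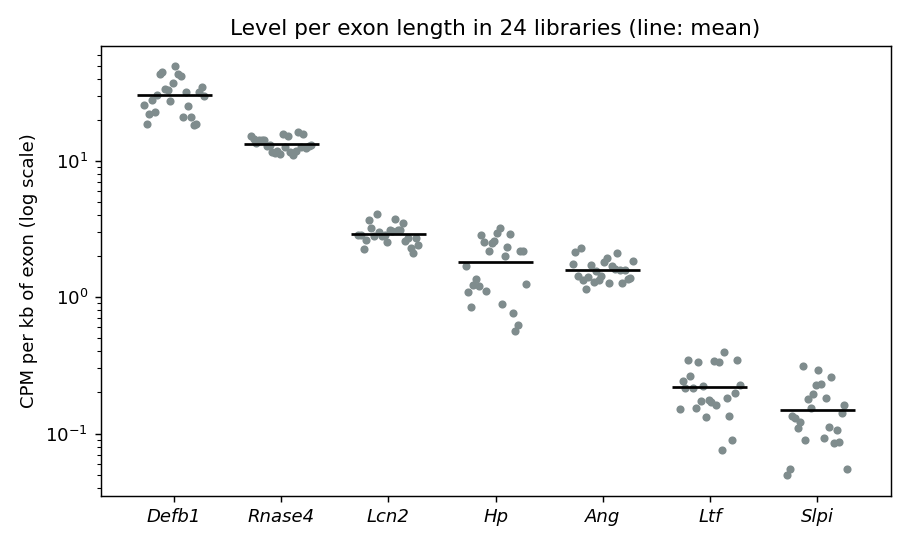
Level of each gene in CPM per kb of exon (log scale), with 1 point for each of the 24 libraries and a line at the mean. Means ran from 30.6 CPM per kb for Defb1 to 0.148 CPM per kb for Slpi.

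Defb1 encodes beta-defensin 1, an antimicrobial peptide that epithelia make constitutively. In the libraries labelled 3XKO it was at 18.2, 16.1 and 16.3 CPM, against 27.9, 30.2 and 26.1 CPM in 3XKO control. The 3 knockout libraries lay below all 3 controls and close together, at 16.9 ± 1.14 CPM against 28.1 ± 2.06 CPM (SD, n = 3 each). The log2 fold change was -0.71 ± 0.08 (SE), which is the difference the gene was picked for. In Dmrt2 KO, Defb1 was at 22.3, 16.3 and 19.2 CPM, against 24.5, 20.0 and 26.6 CPM in Dmrt2 control. All 3 Dmrt2 KO values were below the control mean and 2 were below every control, but the groups overlapped. The log2 fold change of -0.29 ± 0.13 did not pass (adjusted p = 0.399). It was called when the filter on low counts was dropped (adjusted p = 0.0499). With Y-linked expression as a covariate it was -0.08. That value sets the 1 Dmrt2 KO library with such expression against the 3 Dmrt2 controls, so it does not rest on 3 knockouts.

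In the Hmx3; Hmx2 line the spread of Defb1 among controls was wide. Hmx3; Hmx2 KO libraries had 24.2, 30.9 and 38.9 CPM as their lowest, median and highest value, against 18.3, 32.3 and 43.0 CPM in Hmx3; Hmx2 control. Within the controls, replicates 1 to 3 held 36.9 to 43.0 CPM and replicates 4 to 6, which were deposited in a separate table, held 18.3 to 27.7 CPM, without overlap. The knockout libraries of these tables averaged 35.3 ± 5.28 and 28.5 ± 4.24 CPM (SD, n = 3 each), so the difference between the tables of this line was larger than that between its genotypes. With the table as a term the log2 fold change was 0.09 ± 0.14 (adjusted p = 0.977). Within tables it was -0.13 ± 0.11 in replicates 1 to 3 and 0.33 ± 0.19 in replicates 4 to 6, neither called (adjusted p = 0.9996 and 0.9998 with edgeR).

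By group mean, Defb1 was highest in Hmx3; Hmx2 KO, followed by Hmx3; Hmx2 control, 3XKO control, Dmrt2 control, Dmrt2 KO and 3XKO, and each group overlapped in range with the next in that order. The genes most like Defb1 across the 24 libraries, by Pearson's r of log2(CPM + 0.5) centred on each deposited table, were Dld (r = 0.844), which encodes a subunit of mitochondrial dehydrogenase complexes, Immt (r = 0.836), a component of mitochondrial cristae, and Atp6ap1 (r = 0.830), an accessory subunit of the vacuolar proton pump. These libraries include the 3XKO ones used to pick Defb1.

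Hp encodes haptoglobin, which binds free haemoglobin and so keeps its iron from microbes. The libraries labelled 3XKO had 1.23, 0.905 and 1.01 CPM, against 3.52, 3.53 and 2.02 CPM in 3XKO control. All 3 lay below the lowest control, and their range did not reach that of Dmrt2 KO, the next group in the order of means. Hp averaged 1.05 ± 0.165 CPM in 3XKO and 3.02 ± 0.870 CPM in 3XKO control (SD, n = 3 each), a log2 fold change of -1.50 ± 0.24. It rested on 326 reads in all in 3XKO, against 972 in 3XKO control.

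In Dmrt2 KO, Hp was at 2.71, 1.74 and 1.35 CPM, around the values of 1.97, 2.18 and 1.95 CPM in Dmrt2 control. The log2 fold change of -0.07 ± 0.24 was within the replicate error (adjusted p = 0.943). Hmx3; Hmx2 KO had 1.79, 4.05 and 4.63 CPM as lowest, median and highest value, against 1.44, 4.24 and 5.17 CPM in Hmx3; Hmx2 control. The lowest value in both groups came from replicate 3, and the log2 fold change was -0.05 ± 0.31 (adjusted p = 0.993). The genes most like Hp, of the 15039 compared, were Fam114a2 (r = 0.869), Ndrg4 (r = 0.867) and Coq9 (r = 0.863), the last a coenzyme Q biosynthesis gene. The 24 libraries used for this include the 3XKO ones that served to pick Hp. Hp and Defb1 themselves had r = 0.647 over the 24 libraries and 0.366 over the 18 outside the 3XKO table.

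Lcn2 encodes lipocalin 2, which binds bacterial siderophores and is known in adults as a product of type A intercalated cells during infection. Its values in 3XKO were 6.83, 7.07 and 6.00 CPM, against 5.51, 7.09 and 6.29 CPM in 3XKO control, and the groups overlapped (log2 fold change 0.10 ± 0.12). Dmrt2 KO had 7.56, 7.45 and 5.97 CPM, against 6.95, 9.60 and 8.43 CPM in Dmrt2 control. All 3 Dmrt2 KO values were below the control mean, with overlap, and the log2 fold change of -0.24 ± 0.14 did not pass (adjusted p = 0.534).

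In Hmx3; Hmx2 KO, Lcn2 had 6.67, 7.42 and 10.6 CPM as lowest, median and highest value, against 8.08, 8.16 and 9.83 CPM in Hmx3; Hmx2 control. 5 of the 6 knockout libraries were below every control, and the remaining one, replicate 2, was above every control. The log2 fold change was -0.12 ± 0.09 (adjusted p = 0.956), with 0.01 ± 0.15 in the table of replicates 1 to 3 and -0.25 ± 0.10 in that of replicates 4 to 6 (adjusted p = 0.9996 and 0.9998 with edgeR). The genes most like Lcn2 were Zfpl1 (r = 0.802), Ipo4 (r = 0.735) and Zfp575 (r = 0.727).

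Ltf encodes lactoferrin, an iron-binding protein of secretions and neutrophil granules. In 3XKO it was at 0.624, 0.463 and 0.307 CPM, against 0.682, 1.19 and 0.777 CPM in 3XKO control. The groups did not overlap, although the highest knockout and the lowest control were close, and they held 142 reads in 3XKO and 284 in 3XKO control. The log2 fold change was -0.91 ± 0.33, and it ran from -1.18 to -0.64 as 1 library at a time was left out, those values being without 3XKO replicate 1 and without 3XKO control replicate 2. Dmrt2 KO had 0.525, 0.838 and 0.744 CPM, against 1.19, 0.910 and 0.746 CPM in Dmrt2 control. These overlapped, with a log2 fold change of -0.42 ± 0.29 (adjusted p = 0.601). Hmx3; Hmx2 KO ran from 0.459 CPM over a median of 0.604 to 1.15 CPM, inside the span of Hmx3; Hmx2 control from 0.263 CPM over a median of 0.872 to 1.36 CPM (log2 fold change -0.30 ± 0.36, adjusted p = 0.975).

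**Figure D2:**
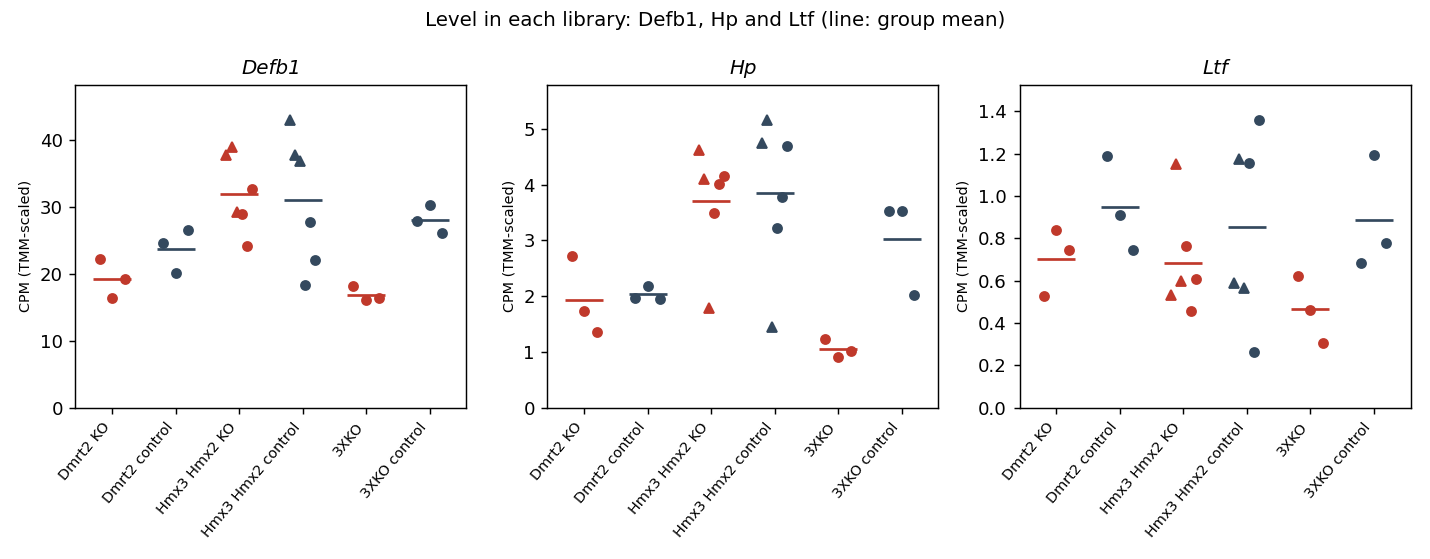
CPM of Defb1, Hp and Ltf in every library, with knockouts in red, controls in dark blue and a line at each group mean. Triangles are Hmx3; Hmx2 replicates 1 to 3 and circles all other libraries. The 3XKO points lie below all 3XKO control points for each gene, while knockouts and controls overlap in the other lines.

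Rnase4 and Ang encode secreted ribonucleases, ribonuclease 4 and angiogenin, both with antimicrobial activity. Rnase4 varied least of the 7 genes, at 21.8 ± 2.58 CPM (SD, n = 24), and ran from 18.2 to 26.8 CPM over the libraries. In 3XKO it was at 26.8, 20.7 and 25.8 CPM, against 20.4, 20.9 and 21.5 CPM in 3XKO control. 2 of the 3 knockout libraries lay above every control and the third lay within them (log2 fold change 0.25 ± 0.09). Dmrt2 KO had 24.8, 23.6 and 22.1 CPM, around the nearly equal values of 23.2, 23.4 and 23.2 CPM in Dmrt2 control. The log2 fold change was 0.03 ± 0.07 (adjusted p = 0.925). Hmx3; Hmx2 KO had 18.5, 19.1 and 21.4 CPM as lowest, median and highest value, against 18.2, 20.0 and 25.8 CPM in Hmx3; Hmx2 control, which overlapped (log2 fold change -0.10 ± 0.06, adjusted p = 0.953).

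Ang had far fewer reads than Rnase4. It was at 1.89, 1.52 and 1.91 CPM in 3XKO, against 1.63, 1.66 and 2.20 CPM in 3XKO control, with overlap and a log2 fold change of -0.02 ± 0.20. Dmrt2 KO had 2.10, 2.56 and 1.71 CPM, against 2.74, 1.60 and 1.39 CPM in Dmrt2 control. The controls were the more scattered group here, and the log2 fold change of 0.16 ± 0.27 did not pass (adjusted p = 0.866). In Hmx3; Hmx2 KO the values ran from 1.56 CPM over a median of 1.70 to 2.06 CPM, against 1.52 CPM over a median of 2.11 to 2.52 CPM in Hmx3; Hmx2 control. All 6 knockouts were below the control mean and none was below every control (log2 fold change -0.24 ± 0.14, adjusted p = 0.953).

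Although Rnase4 and Ang share a promoter window, no relation between them was detected across libraries. Over the 18 libraries outside the 3XKO table, their table-centred levels had r = 0.139 (permutation p = 0.565) and Spearman's rho = 0.0898 (permutation p = 0.725), with an adjusted p of 0.932 for r over 21 pairs. Without the 2 libraries farthest from the median r was -0.134, and within tables it was 0.266 in the Dmrt2 table, 0.122 in Hmx3; Hmx2 replicates 1 to 3 and 0.291 in replicates 4 to 6. The ratio of Rnase4 to Ang reads ran from 7.64 to 16.7 over the 24 libraries. It was 13.5 to 14.2 in 3XKO and 9.78 to 12.6 in 3XKO control, which did not overlap. Ang had 144 to 224 reads a library in 3XKO and 175 to 238 in 3XKO control. Ratios of other gene pairs were not computed, and 25.6% of single genes had ranges apart in this comparison. The ratio was 9.22 to 12.9 in Dmrt2 KO, against 8.44 to 16.7 in Dmrt2 control, and 10.1 to 12.4 in Hmx3; Hmx2 KO, against 7.64 to 16.4 in Hmx3; Hmx2 control. The genes most like Rnase4 were Aire (r = 0.754), 5330438D12Rik (r = 0.714) and 0610010K14Rik (r = 0.682). Those most like Ang were Gm26737 (r = 0.768), Glt8d1 (r = 0.768) and Aadac (r = 0.727). For every member, such r values were picked as the highest among the 15039 genes compared, which raises them. They were not tested.

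Slpi encodes secretory leukocyte protease inhibitor, which restrains neutrophil proteases such as elastase. It was barely detected in these kidneys. It had 0.101, 0.126 and 0.102 CPM in 3XKO, against 0.166, 0.190 and 0.0647 CPM in 3XKO control. Dmrt2 KO had 0.0584, 0.0645 and 0.158 CPM, against 0.152, 0.130 and 0.143 CPM in Dmrt2 control. Hmx3; Hmx2 KO ran from 0.106 CPM over a median of 0.220 to 0.370 CPM, against 0.110 CPM over a median of 0.245 to 0.345 CPM in Hmx3; Hmx2 control. The groups overlapped in every line, and with log2 fold changes of -0.33 ± 0.59, -0.49 ± 0.59 (adjusted p = 0.803) and -0.02 ± 0.37 (adjusted p = 0.995) in that order, changes of the size of these standard errors could not be detected at this depth. The 3XKO value ran from -0.67 without 3XKO control replicate 3 to -0.06 without 3XKO control replicate 2. The Dmrt2 value ran from -1.17 without Dmrt2 KO replicate 3 to -0.26 without Dmrt2 KO replicate 1, in each case not called. With Y-linked expression as a covariate it was -1.24, which rests on the 1 Dmrt2 KO library with such expression.

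**Figure D3:**
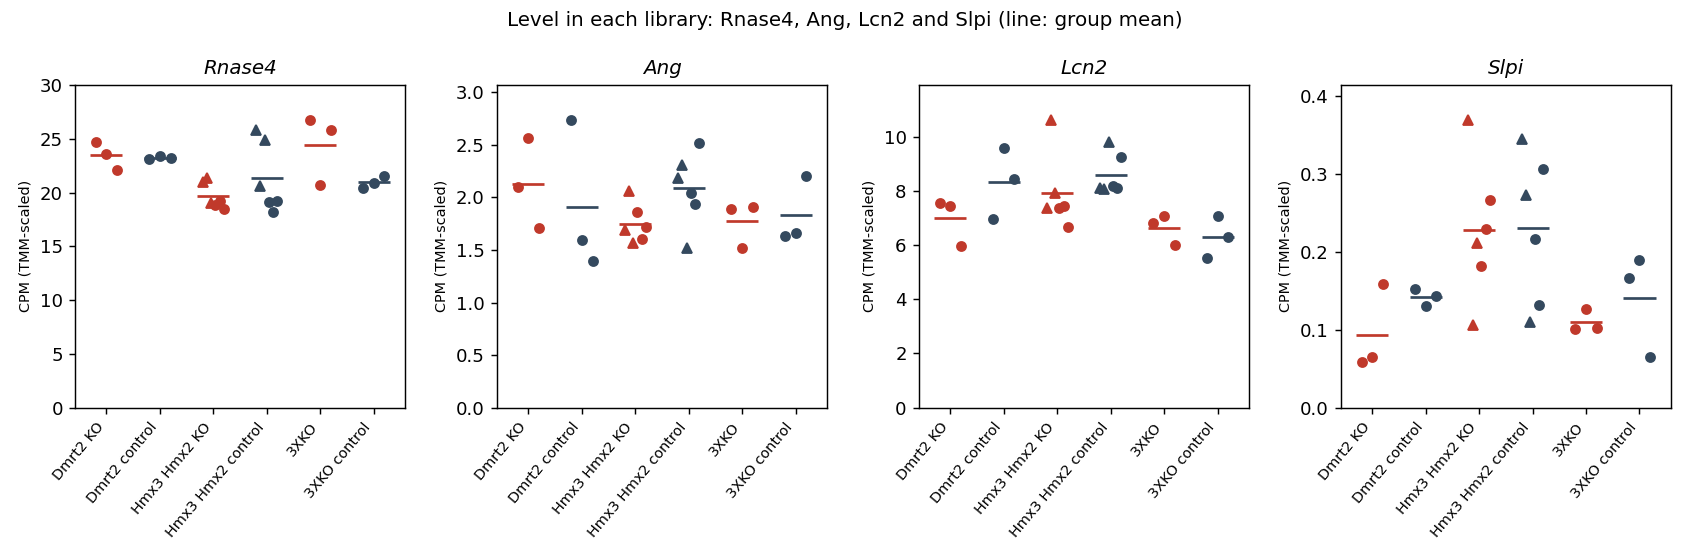
CPM of Rnase4, Ang, Lcn2 and Slpi in every library, with knockouts in red, controls in dark blue and a line at each group mean. Triangles are Hmx3; Hmx2 replicates 1 to 3 and circles all other libraries. Knockouts and controls overlap in every line for the 4 genes.

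All 7 genes passed the filter on low counts in each comparison. In the Dmrt2 comparison 0 of the 7 were called, where 88 of 19807 genes tested were called (0.444%), with edgeR's quasi-likelihood test and Benjamini-Hochberg adjustment over all genes. DESeq2 called 0 of the 6 for which it gave an adjusted p, and 1 of the 7, Defb1, had an unadjusted p under 0.05, as did 12.3% of all genes. Ranges of knockouts and controls were apart for 0 of the 7 genes and for 17.2% of all genes. In the Hmx3; Hmx2 comparison edgeR called 0 of the 7 and 4 of 19809 genes (0.0202%). DESeq2 called 0 of the 7, and 0 had an unadjusted p under 0.05, against 4.88% of all genes. Ranges were apart for 0 of the 7 and for 0.0858% of all genes. The median log2 fold change of the 7 genes was -0.24 in the Dmrt2 comparison and -0.10 in the Hmx3; Hmx2 comparison, beside -0.002 and -0.007 over all genes tested.

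The difference between the Dmrt2 effect and the Hmx3; Hmx2 effect was tested in a fit of all 24 libraries. 0 of the 7 genes were called by edgeR, where 34 of 22101 genes were (0.154%). 0 of the 7 had an unadjusted p under 0.05, against 7.67% of all genes, and DESeq2 was not run on this difference. For Defb1 the Dmrt2 effect minus the Hmx3; Hmx2 effect was -0.39 ± 0.21 (adjusted p = 0.703), and for Ang it was 0.40 ± 0.27 (adjusted p = 0.784). The other 5 genes ran from -0.49 ± 0.69 for Slpi to 0.12 ± 0.11 for Rnase4.

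In the comparison of 3XKO with 3XKO control, 3 of the 7 genes, Defb1, Hp and Ltf, had ranges that did not overlap, each lower in 3XKO. Of the 21537 genes tested, 25.6% had ranges apart, 15.6% with every 3XKO library below every control. Calls at the threshold were made for 1.03% of genes, and 17.9% had an unadjusted p under 0.05. The median log2 fold change of the 7 genes was -0.33, beside 0.001 over all genes. Since this contrast chose the genes, these counts are descriptive.

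**Figure D4:**
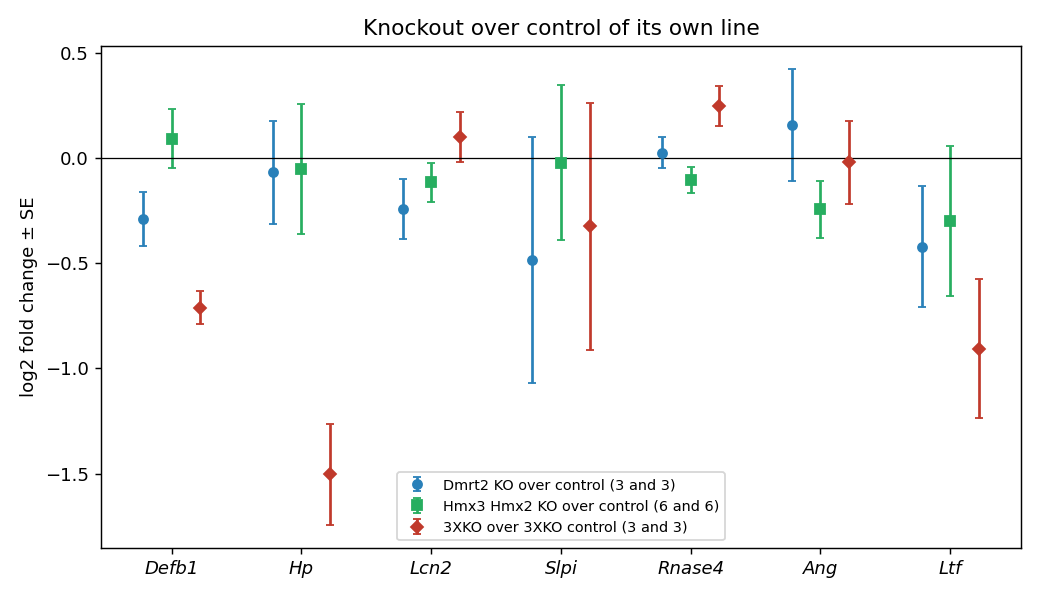
Log2 fold change of each gene with its standard error, knockout over control of its own line, in the Dmrt2, Hmx3; Hmx2 and 3XKO comparisons. Defb1, Hp and Ltf are lowest in 3XKO, at -0.71, -1.50 and -0.91, and 0 of the 14 values of the other comparisons passed the test.

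Defb1 and Hp, the genes picked for the same contrast, were also compared across libraries that did not serve to pick them. Over the 18 libraries outside the 3XKO table, centred on each table, r was 0.366 (permutation p = 0.0730) and Spearman's rho 0.383 (permutation p = 0.0844). Without the 2 libraries farthest from the median r was 0.344, and within the tables it was 0.372 in the Dmrt2 table, 0.649 in Hmx3; Hmx2 replicates 1 to 3 and 0.239 in replicates 4 to 6. Among the 21 pairs of the 7 genes, 0 passed Benjamini-Hochberg adjustment, with an adjusted p of 0.473 for Defb1 and Hp. The lowest p was that of Ang and Ltf (r = 0.520, permutation p = 0.0181, adjusted p = 0.380), whose rho was 0.408 (permutation p = 0.0847, adjusted p = 0.445).

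Other secreted defence proteins were taken from a list of 22 genes that includes Umod, the main protein of urine, lysozymes, complement and further antimicrobial proteins. 16 of them were tested in each comparison, and edgeR called 0 in each. At an unadjusted p under 0.05 there were 1 in the Dmrt2, 0 in the Hmx3; Hmx2 and 6 in the 3XKO comparison, and DESeq2 called 0, 0 and 2. Of all genes tested, 12.3%, 4.88% and 17.9% had an unadjusted p under 0.05, shares that stand beside the lists below too. Over all genes, DESeq2 called 417 in the Dmrt2 and 1021 in the 3XKO comparison. The DESeq2 calls, Clu and Lyz2, are named after their values were seen. Clu, a secreted chaperone, averaged 226 ± 13.5 CPM in 3XKO and 281 ± 31.1 CPM in 3XKO control, and Lyz2, the lysozyme of macrophages, 8.39 ± 0.473 and 11.5 ± 2.59 CPM (SD, n = 3 each). The median log2 fold change of the list was 0.03, 0.01 and -0.11 in the Dmrt2, Hmx3; Hmx2 and 3XKO comparisons.

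Spp1 encodes osteopontin, a secreted phosphoprotein. It averaged 209 ± 32.6 CPM in 3XKO and 371 ± 112.4 CPM in 3XKO control (SD, n = 3 each), with ranges apart and a log2 fold change of -0.81 ± 0.29 (adjusted p = 0.267). Rnase6, another antimicrobial ribonuclease, was at 0.205 ± 0.0784 CPM in 3XKO and 0.411 ± 0.182 CPM in 3XKO control (log2 fold change -0.99 ± 0.48, adjusted p = 0.301). Camp, the cathelicidin precursor, was at 0.227 ± 0.112 CPM in 3XKO and 0.137 ± 0.0460 CPM in 3XKO control (adjusted p = 0.497). In the Dmrt2 line the widest differences were in Camp, Cfb and Sftpd, with log2 fold changes of -0.61 ± 0.51, 0.56 ± 0.25 and -0.41 ± 0.57. In the Hmx3; Hmx2 line they were in Sftpd, Bpi and Rnase6, with -0.55 ± 0.42, 0.38 ± 0.35 and -0.20 ± 0.40. None of these passed (adjusted p from 0.385 to 0.980 over these 6 values with edgeR, although Cfb had an unadjusted p under 0.05).

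Microbial sensors and their adaptors, Toll-like and NOD-like receptors among them, were measured for 19 of 20 genes listed, and edgeR called 0 in each comparison. At an unadjusted p under 0.05 there were 2 in the Dmrt2, 0 in the Hmx3; Hmx2 and 6 in the 3XKO comparison, and DESeq2 called 0, 0 and 1, the last being Tlr4, the receptor for lipopolysaccharide (3.48 ± 0.181 CPM in 3XKO and 4.88 ± 0.189 CPM in 3XKO control). Tlr1, which detects bacterial lipopeptides with Tlr2, averaged 1.00 ± 0.289 CPM in Dmrt2 KO and 0.436 ± 0.0977 CPM in Dmrt2 control (SD, n = 3 each), with ranges apart. Its log2 fold change of 1.21 ± 0.31 did not pass (adjusted p = 0.127), but it was called without the filter on low counts (adjusted p = 0.0165) and in the fit of 24 libraries (adjusted p = 0.0424). In Hmx3; Hmx2 KO, Tlr1 had a log2 fold change of -0.33 ± 0.21 (adjusted p = 0.953). Tlr6 had 0.78 ± 0.32 in the Dmrt2 and -0.67 ± 0.30 in the 3XKO comparison, neither called (adjusted p = 0.356 and 0.270). In 3XKO the list's median log2 fold change was -0.23, with 13 of 19 genes negative, beside 0.01 in the Dmrt2 and -0.01 in the Hmx3; Hmx2 comparison. Nlrp3, an inflammasome sensor, and Cd14, the lipopolysaccharide co-receptor, had log2 fold changes of -0.66 ± 0.32 and -0.64 ± 0.29 in 3XKO (adjusted p = 0.309 and 0.282). Nlrp3 had -0.41 ± 0.38 in the Dmrt2 and -0.23 ± 0.24 in the Hmx3; Hmx2 comparison, and Tlr6 had 0.16 ± 0.34 in the Hmx3; Hmx2 line, with 0 called by edgeR.

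The induction pathway list of IL-6, IL-17, IL-22 and NF-kB signalling genes had 20 of 24 genes tested, and edgeR called 0 in each comparison, as did DESeq2. At an unadjusted p under 0.05 there were 4, 3 and 3 genes in the Dmrt2, Hmx3; Hmx2 and 3XKO comparisons. Nfkbia, named after its values were seen, was among them each time. Its log2 fold changes were -0.24 ± 0.07, -0.11 ± 0.04 and -0.20 ± 0.06, none called (adjusted p = 0.202, 0.953 and 0.155 with edgeR). Cebpd, a C/EBP factor of the acute phase response, also had a lower mean in the knockouts of each line, with 0 calls in these 3 comparisons. It averaged 22.9 ± 3.12 CPM in Dmrt2 KO and 28.1 ± 4.01 CPM in Dmrt2 control, with a log2 fold change of -0.29 ± 0.12 (adjusted p = 0.373). The means were 13.7 ± 2.32 CPM in Hmx3; Hmx2 KO and 16.4 ± 2.35 CPM in Hmx3; Hmx2 control (log2 fold change -0.25 ± 0.11, adjusted p = 0.953). They were 15.3 ± 2.24 CPM in 3XKO and 20.0 ± 4.50 CPM in 3XKO control (log2 fold change -0.36 ± 0.18, adjusted p = 0.337). Without the filter on low counts Cebpd was called in the Dmrt2 (adjusted p = 0.0293) and 3XKO (adjusted p = 0.00497) comparisons. With Y-linked expression as a covariate, its Dmrt2 log2 fold change was -0.09, which rests on the 1 Dmrt2 KO library with such expression. Nfkbiz, an atypical NF-kB cofactor that is known to drive Lcn2, was at 10.8 ± 1.09 CPM in 3XKO and 8.95 ± 0.512 CPM in 3XKO control (log2 fold change 0.30 ± 0.10, adjusted p = 0.168). Cxcl1, a neutrophil-attracting chemokine, had log2 fold changes of -0.59 ± 0.55, 0.28 ± 0.38 and 0.46 ± 0.41 in the Dmrt2, Hmx3; Hmx2 and 3XKO comparisons, none called (adjusted p = 0.725, 0.975 and 0.595). Il22ra1, the IL-22 receptor chain, had 0.46 ± 0.46 in the Dmrt2 comparison and Tnf had 0.58 ± 0.61 in the Hmx3; Hmx2 comparison (adjusted p = 0.747 and 0.966). The medians of the list, -0.004, -0.007 and 0.006, were close to those of all genes.

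Among the partners and receptors of these proteins, 10 of 12 genes were tested. edgeR called 0 in the Dmrt2 and 0 in the Hmx3; Hmx2 comparison, with 1 gene in each at an unadjusted p under 0.05 and 0 by DESeq2. In 3XKO, 2 of the 10 were called higher and 0 lower. Slc22a17, a receptor for lipocalin 2, averaged 82.5 ± 3.67 CPM in 3XKO and 66.0 ± 1.40 CPM in 3XKO control (SD, n = 3 each), a log2 fold change of 0.35 ± 0.05 (adjusted p = 0.0161). The call was lost without 3XKO replicate 3 (adjusted p = 0.0861). In the other lines it averaged 92.8 ± 3.81 CPM in Dmrt2 KO and 89.8 ± 8.51 CPM in Dmrt2 control (SD, n = 3 each), and 85.1 ± 6.91 CPM in Hmx3; Hmx2 KO and 94.0 ± 6.36 CPM in Hmx3; Hmx2 control (SD, n = 6 each). Both control means were above either mean of the 3XKO line. The Hmx3; Hmx2 log2 fold change, -0.14 ± 0.03, was not called (adjusted p = 0.908), and Slc22a17 was the 1 gene of the list with an unadjusted p under 0.05 there.

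Lrp1, an endocytic receptor that takes up lactoferrin and haemopexin complexes, averaged 343 ± 20.2 CPM in 3XKO and 250 ± 26.3 CPM in 3XKO control (SD, n = 3 each), a log2 fold change of 0.48 ± 0.08 (adjusted p = 0.0254). The call was lost in the fit of 24 libraries (adjusted p = 0.180) and without 3XKO replicate 1, 2 or 3 (adjusted p from 0.0676 to 0.0758). In Dmrt2 KO and Hmx3; Hmx2 KO the log2 fold changes of Lrp1 were 0.17 ± 0.08 and 0.21 ± 0.16 (adjusted p = 0.400 and 0.956). Lrp2, megalin, which takes up lipocalin 2 in the proximal tubule, had 0.19 ± 0.15 and 0.18 ± 0.19 in those lines, also not called (adjusted p = 0.682 and 0.969). In 3XKO, Lrp2 averaged 1049 ± 148 CPM, against 850 ± 102 CPM in 3XKO control (SD, n = 3 each), with overlap. That log2 fold change of 0.33 ± 0.12 was called by DESeq2 and not by edgeR (adjusted p = 0.238 with edgeR). Hpx, haemopexin, which binds free haem, had 0.25 ± 0.41 in the Dmrt2 comparison, and Hmox1, which degrades haem, -0.27 ± 0.12 in the Hmx3; Hmx2 comparison (adjusted p = 0.863 and 0.953).

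Markers of other cells that make these proteins were followed beside them. Of single genes tested, 25.6% had ranges apart in the 3XKO comparison and 17.2% in the Dmrt2 comparison. No such share was computed for summed levels, here or below. Neutrophils store lipocalin 2 and lactoferrin, and 8 of 10 neutrophil genes passed the filter. The summed level of all 10 was 8.06 to 9.12 CPM in 3XKO and 9.85 to 13.4 CPM in 3XKO control, without overlap. edgeR called 2 of the 8 lower in 3XKO and 0 higher. S100a8, a granulocyte calprotectin subunit, was at 0.431 ± 0.0456 CPM in 3XKO and 1.07 ± 0.192 CPM in 3XKO control (log2 fold change -1.28 ± 0.26, adjusted p = 0.0429). Ngp, a neutrophil granule protein, was at 0.363 ± 0.0988 CPM in 3XKO and 1.10 ± 0.322 CPM in 3XKO control (log2 fold change -1.56 ± 0.31, adjusted p = 0.0420).

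Both calls were lost when 3XKO replicate 1, 2 or 3 or 3XKO control replicate 1 or 2 was left out (adjusted p from 0.0707 to 0.156 in those fits). Not every neutrophil gene was lower in 3XKO, since Ly6g had a log2 fold change of 1.18 ± 0.46 and Prtn3 of 0.02 ± 0.18. The defining gene Elane had a median of 0 CPM over the 24 libraries, and Mpo ranged from 0 to 0.258 CPM. The part of these markers in the Ltf value was not tested. Summed neutrophil levels overlapped in the other lines, at 9.06 to 11.9 CPM in Dmrt2 KO and 11.2 to 12.6 CPM in Dmrt2 control, and at 8.72 to 11.9 CPM in Hmx3; Hmx2 KO and 9.68 to 14.4 CPM in Hmx3; Hmx2 control.

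Hepatocytes are the main source of haptoglobin. 7 of 8 hepatocyte genes were tested in 3XKO, with 0 called by edgeR, 3 at an unadjusted p under 0.05 and 3 called by DESeq2. The summed level of all 8 overlapped between 3XKO (134 to 179 CPM) and 3XKO control (111 to 148 CPM), most of it from Afp, at 120 ± 21.5 CPM in 3XKO and 95.5 ± 30.9 CPM in 3XKO control. Alb, Ahsg and Fga had ranges apart, Alb with 0.936 ± 0.646 CPM in 3XKO and 3.96 ± 1.93 CPM in 3XKO control (adjusted p = 0.211). Ahsg was at 0.266 ± 0.171 CPM in 3XKO and 1.52 ± 0.849 CPM in 3XKO control (adjusted p = 0.107). Fga, a fibrinogen chain, was at 3.505 ± 0.620 CPM in 3XKO and 5.02 ± 0.437 CPM in 3XKO control, with a log2 fold change of -0.49 ± 0.15 (adjusted p = 0.143). Apoa2 was at 0.453 ± 0.289 CPM in 3XKO and 0.292 ± 0.0380 CPM in 3XKO control (adjusted p = 0.535). In the other lines, where Hp was not called, the summed level was 102 to 141 CPM in Dmrt2 KO and 159 to 201 CPM in Dmrt2 control, without overlap, and 102 to 180 CPM in Hmx3; Hmx2 KO and 113 to 223 CPM in Hmx3; Hmx2 control. Ttr, the transthyretin gene, averaged 29.7 ± 4.99 CPM in Dmrt2 KO and 62.4 ± 7.80 CPM in Dmrt2 control (SD, n = 3 each), and it was called by DESeq2 and not by edgeR (log2 fold change -1.06 ± 0.15, adjusted p = 0.0504 with edgeR). Most of the summed level in the Dmrt2 line came from Afp and Ttr. Afp had a log2 fold change of -0.33 ± 0.22 there (adjusted p = 0.627 with edgeR). The other hepatocyte genes did not all follow. Of the 7 tested in the Dmrt2 comparison, 5 had negative and 2 positive log2 fold changes, with 0 called by edgeR. The positive ones were Apoa2 (0.68 ± 0.47) and Fga (0.13 ± 0.16), and Alb had -0.18 ± 0.69. Serpina1c was at a median of 0 CPM over the 24 libraries. Adipocytes also make haptoglobin, and the summed level of 5 adipocyte genes stayed between 0.0340 and 0.409 CPM, with 0 of 5 passing the filter. The part of the hepatocyte genes in the Hp value was not tested.

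**Figure D5:**
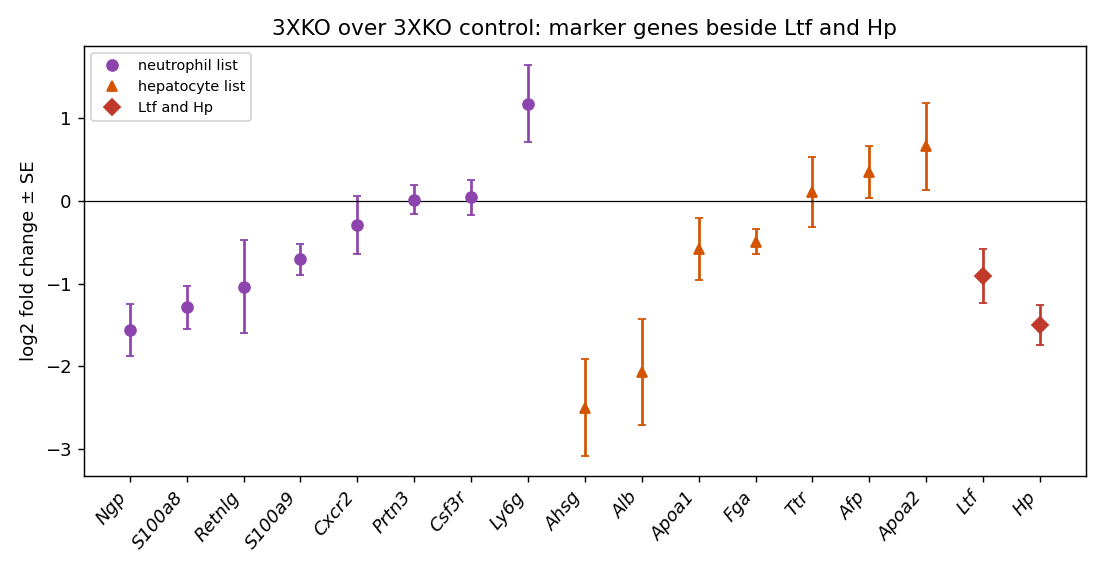
Log2 fold change with standard error, 3XKO over 3XKO control, for the tested neutrophil and hepatocyte markers beside Ltf and Hp. S100a8 and Ngp were the only marker genes shown that edgeR called, and Ly6g lay on the opposite side of 0, at 1.18.

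The cells of the collecting duct and urinary epithelium were measured by their own lists. Principal cell genes summed to 661 to 753 CPM in 3XKO and 798 to 873 CPM in 3XKO control, without overlap, and to 757 to 821 CPM in Dmrt2 KO and 847 to 1115 CPM in Dmrt2 control, also without overlap. edgeR called 0 of 9 principal cell genes in either comparison, with 2 and 1 at an unadjusted p under 0.05 and 1 called by DESeq2 in each. Type A intercalated cell genes summed to 229 to 248 CPM in 3XKO and 250 to 268 CPM in 3XKO control, and to 168 to 183 CPM in Dmrt2 KO and 240 to 269 CPM in Dmrt2 control. 2 of 5, Slc4a1 and Aqp6, were called lower in 3XKO, and 3 of 5, these and Kit, in Dmrt2 KO, where Lcn2 was not called. Slc4a1 averaged 7.24 ± 1.11 CPM in 3XKO and 17.9 ± 2.62 CPM in 3XKO control (SD, n = 3 each). Aqp6 averaged 6.49 ± 1.27 and 17.3 ± 3.54 CPM in these groups. In Dmrt2 KO and Dmrt2 control, Slc4a1 averaged 3.73 and 17.1 CPM and Aqp6 0.789 and 14.7 CPM. Adgrf5, most of each sum in the 3XKO line, averaged 164 CPM in 3XKO and 161 CPM in 3XKO control. In 3XKO, 2 of the 5, Kit and Adgrf5, had positive log2 fold changes (0.15 ± 0.06 and 0.05 ± 0.06, not called). All 5 were positive in the Hmx3; Hmx2 comparison, with 0 called. The genes shared by both types summed to 1003 to 1011 CPM in 3XKO and 1006 to 1138 CPM in 3XKO control, and to 749 to 754 CPM in Dmrt2 KO and 830 to 900 CPM in Dmrt2 control, the Dmrt2 groups without overlap. All 10 had negative log2 fold changes in the Dmrt2 comparison, and 1 of 10, Atp6v1g3, was called lower in each of the Dmrt2 and 3XKO comparisons. Type B genes summed to 171 to 199 CPM in 3XKO and 108 to 125 CPM in 3XKO control, and edgeR called 3 of 7 higher. Oxgr1 and Spink8 had negative log2 fold changes in 3XKO (-0.27 ± 0.13 and -0.74 ± 0.21). Neither was called by edgeR, and Spink8 was called by DESeq2. The type B genes summed to 154 to 173 CPM in Dmrt2 KO and 118 to 131 CPM in Dmrt2 control, where 3 of 7 were called higher and 1, Oxgr1, lower. In the Hmx3; Hmx2 comparison 1 of 7, Slc26a4, was called lower (log2 fold change -1.31 ± 0.14). Urothelial genes summed to 30.0 to 61.7 CPM in Dmrt2 KO and 57.6 to 85.3 CPM in Dmrt2 control, and all 6 had negative log2 fold changes there, with 0 called by edgeR or DESeq2 and 1 at an unadjusted p under 0.05. Macrophage genes summed to 117 to 125 CPM in 3XKO and 130 to 160 CPM in 3XKO control, without overlap, with 0 of 8 called by edgeR, 5 at an unadjusted p under 0.05 and 3 called by DESeq2. Of those 5, Csf1r, C1qa, C1qb and C1qc had lower means in 3XKO, while Mrc1 was at 21.5 ± 1.28 CPM in 3XKO and 18.2 ± 1.26 CPM in 3XKO control, with ranges apart (log2 fold change 0.26 ± 0.08, adjusted p = 0.148). The part of these cells in the values of Defb1, Hp and Ltf was not tested.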

How the data were processed

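Bulk RNA of embryonic day 18.5 kidneys was sequenced in 24 libraries after poly(A) selection, per the labels' protocols. The authors deposited raw read counts for 54393 genes in 4 tables, 2 of them for the Hmx3; Hmx2 line. Per the submitters' processing notes, fastp 0.20.1, STAR 2.7.0e and featureCounts 2.0.1 were used on mm39. The file headers give featureCounts 2.0.3 and GENCODE vM29, and they show that counting was over exons of a gene without strand, that reads rather than read pairs were counted, and that reads overlapping several genes or mapping to several places were dropped. Both reads of a pair can thus add to a count, so the read numbers given here exceed the numbers of sequenced fragments. 2 columns matching no sample stayed out.

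Groups and replicate numbers come from the sample titles. Tests used edgeR 4.0.16 in R 4.3.3 with TMM scaling, filterByExpr (minimum count 10, total 15), the robust quasi-likelihood test and Benjamini-Hochberg adjustment over all genes tested, and a gene with an adjusted p under 0.05 is said to be called. The deposited table was a term in the Hmx3; Hmx2 fit and in the fit of 24 libraries, and DESeq2 1.42.0, which gives no adjusted p to some genes of low count, was an alternative. The scripts were tested on simulated counts. Correlations used log2(CPM + 0.5) centred on each table and 100000 permutations within tables. All CPM share 1 TMM scaling over the 24 libraries. The libraries hold 52286824 to 127339273 assigned reads, which carry no molecular identifiers. From the lists, the called genes are named, or, where a list has 0 calls in a comparison, up to 3 with the largest absolute log2 fold change, together with the 3 genes most like each member with a mean of at least 1 CPM. The genes and the lists were chosen with earlier results of these data known.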

Additional observations from a re-analysis of the deposited data

Results flagged for a closer look

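Of the 14 sets of 6 libraries examined (7 genes in Hmx3; Hmx2 KO and in Hmx3; Hmx2 control), 1 held a library far from the others. Lcn2 was at 10.6 CPM in Hmx3; Hmx2 KO replicate 2, against 6.67 to 7.94 CPM in the other 5 knockout libraries, a gap past Dixon's 95% critical value. Chance alone flags about 5% of such sets. Lcn2 was between 8.08 and 9.83 CPM in Hmx3; Hmx2 control.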

How the results depend on the processing

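In the Dmrt2 comparison, the count of genes called (88) became 417 with DESeq2 and 676 without a filter on low counts. It ran from 26 to 195 with 1 library left out. Of the 7 defence genes, 1 was called without the filter (Defb1) and 0 otherwise. In the Hmx3; Hmx2 comparison, the 4 calls became 2 with a minimum mean of 1 CPM, 2 in replicates 1 to 3 alone and 2 in replicates 4 to 6 alone. In the 3XKO comparison, 222 calls became 1021 with DESeq2, 1510 without a filter, 573 in the fit of 24 libraries and 20 to 438 with 1 library left out. With 1 library left out, Defb1 (-0.77 to -0.67), Hp (-1.73 to -1.38) and Ltf (-1.18 to -0.64) stayed negative in 3XKO. The 34 calls for the difference of effects became 52 without the 3XKO table and 13 to 49 with 1 Dmrt2 line library left out. Rnase4 in Dmrt2 control moved to 23.1 CPM on total counts and 23.0 CPM on DESeq2 size factors. With the Y-linked covariate, log2 fold changes in the Dmrt2 comparison turned to 0.43 for Hp and 0.31 for Sftpd. These values rest on the 1 Dmrt2 KO library with Y-linked expression, set against the 3 Dmrt2 controls. In the Hmx3; Hmx2 comparison, log2 fold changes with the covariate turned to 0.082 for Slpi and 0.058 for Rnase6. In Hmx3; Hmx2 replicates 1 to 3 they turned to -0.13 for Defb1, 0.015 for Lcn2, 0.089 for Sftpd, 0.085 for Rnase6 and 0.11 for Nlrp3, and in replicates 4 to 6 to 0.0016 for Hp, 0.058 for Slpi and 0.0046 for Rnase4. With 1 library left out, signs varied in the Dmrt2 comparison for Hp (-0.39 to 0.15), Rnase4 (-0.014 to 0.076), Ang (-0.027 to 0.51), Sftpd (-0.89 to 0.026), Cxcl1 (-0.91 to 0.062) and Hpx (-0.035 to 0.60), in the Hmx3; Hmx2 comparison for Hp (-0.22 to 0.095), Slpi (-0.24 to 0.16) and Tlr6 (-0.20 to 0.32), in the 3XKO comparison for Ang (-0.098 to 0.13), and in the difference of effects for Hp (-0.35 to 0.20) and Ltf (-0.27 to 0.069). The cause of these changes was not tested. Depth limited Slpi (4 to 27 reads a library) and Ltf (16 to 126 reads) most.

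Same-numbered libraries did not deviate together in every pair (correlations 0.0550 to 0.168 in the Dmrt2 line, -0.132 to 0.379 in the Hmx3; Hmx2 line and -0.416 to -0.127 in the 3XKO line), so the numbers were not taken to pair samples. Each library correlated best with its own number in 6 of 6 cases in the Dmrt2 line, 7 of 12 in the Hmx3; Hmx2 line and 0 of 6 in the 3XKO line. With the replicate block, calls in the 3XKO comparison numbered 58, and Slc22a17 (adjusted p = 0.0707), Lrp1 (0.0989), S100a8 (0.122) and Ngp (0.130) were not called. S100a8 was also not called with the Y-linked covariate (adjusted p = 0.0552).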
